A study of Mus musculus with 6 samples.

Results

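The 4 mouse lines of induced pluripotent stem cells (iPSC) in the series were compared with mouse embryonic fibroblasts (MEF), the connective tissue cells of the embryo that are commonly used as the starting cells of reprogramming. The comparison used 5 of the 6 RNA sequencing libraries of the series, 1 for each iPSC line and 1 for MEF, chosen by their labels alone. Control iPSC 3 and control iPSC 7 carry the label of normal iPSC. PC iPSC 5 and PC iPSC 13 carry the label of iPSC obtained with palmitoylcarnitine, the acylcarnitine in which palmitate is carried into mitochondria. The 4 lines were grown in medium with 15% serum and leukemia inhibitory factor (LIF) at 10 ng/ml, on a feeder layer of MEF stopped from dividing with mitomycin C. MEF were grown without feeders in medium with 10% serum and no LIF is named for them. A library of mouse embryonic stem cells (ESC), grown as the iPSC were, is given as a reference level only. The ESC library is titled B6, with the source name B6/blu. For the iPSC lines and MEF the sources used here name no strain or sex, and they give neither the reprogramming factors and their vectors, nor the passage, nor the dose of palmitoylcarnitine.

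A fibroblast is held in its state by mesenchymal transcription factors and keeps up a large output of collagens, proteoglycans and matrix enzymes. Reprogramming silences that programme and switches on the pluripotency network, in which Pou5f1 and Sox2 bind neighbouring sites beside Nanog, Zfp42, Esrrb and other targets, and the cells regain E-cadherin contacts and a fast cell cycle. LIF, acting through Stat3, keeps mouse pluripotent cells in the naive state. The usual factors delivered to fibroblasts are Pou5f1, Sox2, Klf4 and Myc.

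The promoters of 3 genes are shown because they hold letters that Pou5f1 is known to bind, joined in Nanog to those of Sox2. That of Emp1 is shown because it holds the letters of the AP-1 factors of fibroblasts. Each runs from 250 bases before to 50 after the start site on GRCm38 (RefSeq), 5′ to 3′ on the gene's strand. Capitals mark the match, on either strand. Nanog, the homeobox factor of the pluripotent state, is at chr6:122707239-122707538 on the plus strand, with the joint element CATTGT followed by ATGCAA, separated by 0 to 3 bases, on the opposite strand 74 bases before the start. Zfp42, the zinc finger marker of naive cells also known as Rex1, is at chr8:43306960-43307259 on the minus strand, with the octamer ATGCAAAT 186 bases before the start. Col3a1, a fibrillar collagen chain, is at chr1:45311288-45311587 on the plus strand, and holds the same octamer 148 bases before the start. Emp1, a membrane protein of the PMP22 family, is at chr6:135362681-135362980 on the plus strand, with TGANTCA at 2 places. The window of the other Emp1 start site in the table holds no match.
Nanog: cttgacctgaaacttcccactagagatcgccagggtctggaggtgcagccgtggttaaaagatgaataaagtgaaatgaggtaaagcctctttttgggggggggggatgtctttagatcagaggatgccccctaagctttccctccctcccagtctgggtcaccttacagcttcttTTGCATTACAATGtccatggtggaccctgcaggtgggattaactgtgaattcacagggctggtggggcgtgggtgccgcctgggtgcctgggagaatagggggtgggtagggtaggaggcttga
Zfp42: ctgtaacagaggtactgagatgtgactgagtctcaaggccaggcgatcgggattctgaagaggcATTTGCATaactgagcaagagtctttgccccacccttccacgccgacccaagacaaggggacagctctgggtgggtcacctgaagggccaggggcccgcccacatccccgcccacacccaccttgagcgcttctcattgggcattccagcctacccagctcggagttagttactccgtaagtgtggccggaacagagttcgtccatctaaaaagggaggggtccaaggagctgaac
Col3a1: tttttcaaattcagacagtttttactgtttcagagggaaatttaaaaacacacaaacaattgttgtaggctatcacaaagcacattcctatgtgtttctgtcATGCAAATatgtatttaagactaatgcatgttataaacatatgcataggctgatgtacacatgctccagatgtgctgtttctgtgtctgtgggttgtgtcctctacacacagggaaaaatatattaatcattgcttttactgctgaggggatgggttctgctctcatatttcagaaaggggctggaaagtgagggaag
Emp1: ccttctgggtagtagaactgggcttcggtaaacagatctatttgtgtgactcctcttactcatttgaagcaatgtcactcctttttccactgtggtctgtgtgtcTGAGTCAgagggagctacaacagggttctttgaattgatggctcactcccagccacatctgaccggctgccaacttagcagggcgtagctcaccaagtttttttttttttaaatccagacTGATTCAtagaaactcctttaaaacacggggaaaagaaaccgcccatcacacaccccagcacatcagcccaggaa
The octamer is thus found before 2 genes of opposite level in this comparison: Zfp42 had 163 ± 13.6 RPKM in iPSC and no read in MEF, and Col3a1 had 58.6 ± 16.4 against 1365 RPKM. RPKM is the read count scaled to gene length and library size, so that levels of different genes can be set side by side. A level written with ± is the mean and SD over the 4 lines (n = 4), and MEF has a single value.

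Each library held 26.5 M to 28 M reads, with 16326 genes detected in MEF and 17234 to 17463 in the lines. The labels were checked on defining markers. All 8 pluripotent markers summed to 3600.0 to 4667 RPKM in the lines and 158 in MEF, where 6 of the 8 had no read. Dppa5a made up most of each sum in the lines (2185 to 3053 RPKM), and Pou5f1 nearly all of the MEF sum. The 10 fibroblast markers summed to 5912 RPKM in MEF. In the lines the same sum was 556 in control iPSC 3 and 1055 to 1270.0 in the other 3, against 296 in ESC. Col1a1 made up the largest part of each line's sum, at 258 RPKM in control iPSC 3 and 516 to 635 in the other 3. The RNA of feeder fibroblasts and fibroblast genes active in the iPSC themselves cannot be told apart in these libraries, nor can fewer cells of a type and less RNA per cell. The 8 macrophage markers summed to 741 RPKM in MEF and 13.4 to 19.2 in the lines.

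The MEF library also held reads of the reprogramming factors themselves, which for Pou5f1 and Sox2 is against what fibroblasts are known to express. Pou5f1, the POU factor Oct4, had 5974 reads and Sox2, its high mobility group partner, had 6063 reads in MEF. Klf4, a Krüppel-like factor, had 10570 and Myc, the growth regulator, had 10333, and fibroblasts are known to express both. In the same library Nanog had 3 reads, and Zfp42, Esrrb, Dppa5a and the RNA-binding protein Lin28a had none. Reads lay over 54.6% of the Sox2 length of 2457 bases in MEF, against 99.8% to 99.9% in the lines. For Pou5f1 the covered share was 79.4% in MEF and 95.4% to 96.8% in the lines. Of 568 genes with 0.8 to 1.25 times as many MEF reads as Sox2, 0 had a lower covered share, and for Pou5f1 it was 4 of 579. For Myc it was 7 of 292, but its covered share was 88.58% in MEF and lower, at 78.95% to 85.12%, in the lines. For Klf4 it was 39 of 279, with 96.47% covered in MEF and 98.53% to 99.25% in the lines. The coding part makes up 38.9% of the Sox2 length and 78% of that of Pou5f1 by the GENCODE annotation. Whether these reads come from the cells' own genes or from introduced copies was not tested, and every comparison below uses this MEF library.

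**Figure D1:**
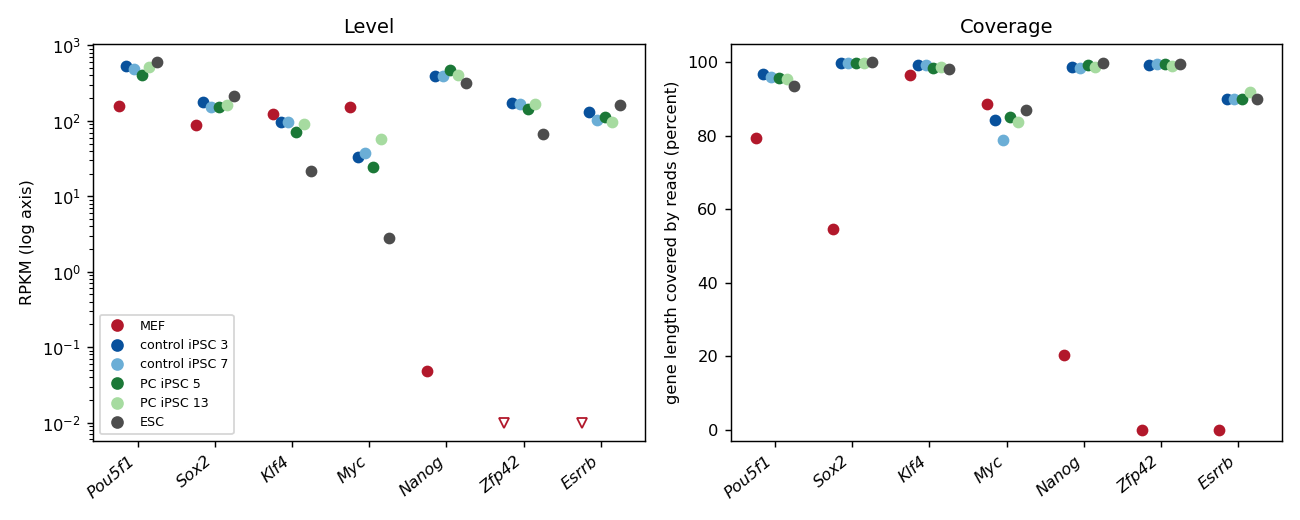
Levels (left, RPKM on a log axis) and share of the gene length covered by reads (right, percent) of 7 pluripotency or reprogramming genes, 1 point per library. Open triangles on the left are libraries with no read. MEF has Pou5f1 and Sox2 at 158 and 88.2 RPKM with lower coverage than the other libraries, and no read of Zfp42 or Esrrb.

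Across the transcriptome the iPSC lines differed from MEF at most genes, in both directions. A gene is said to be called, or higher or lower, where the edgeR quasi-likelihood test gave a Benjamini-Hochberg adjusted p under 0.05. Of 16435 genes tested, 11185 (68.1%) were called, 5993 (36.5%) higher and 5192 (31.6%) lower in iPSC. A difference of at least 8-fold was found for 2024 (12.3%) in the higher and 1431 (8.71%) in the lower direction. All 4 lines lay on one side of MEF for 14630 tested genes (89.0%), and for every called gene. The median log2 fold change of all tested genes was 0.16. The counts of members given for each gene list are to be read against these shares. MEF is 1 library, assumed in the fit to vary as the iPSC lines did, and no label says that the libraries come from separate cultures, so a p-value here takes in no spread beyond that of these libraries, which may be technical.

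The 2024 genes at least 8-fold higher took up 7.71% to 8.17% of all reads in the lines and 0.401% in MEF. The 1431 genes at least 8-fold lower took up 14.9% in MEF and 0.676% to 0.951% in the lines. These genes were chosen on the same values, so the shares are a description. The root mean square difference in log2(RPKM + 1) over the tested genes was 1.43 to 1.5 between a line and MEF, and 0.176 to 0.361 between 2 lines. Control iPSC 7 and PC iPSC 13 were the closest pair, and control iPSC 3 and PC iPSC 5 the farthest apart. Over all tested genes the median range of the 4 lines on that scale was 0.288, and the median absolute difference of their mean from MEF was 0.748.

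**Figure D2:**
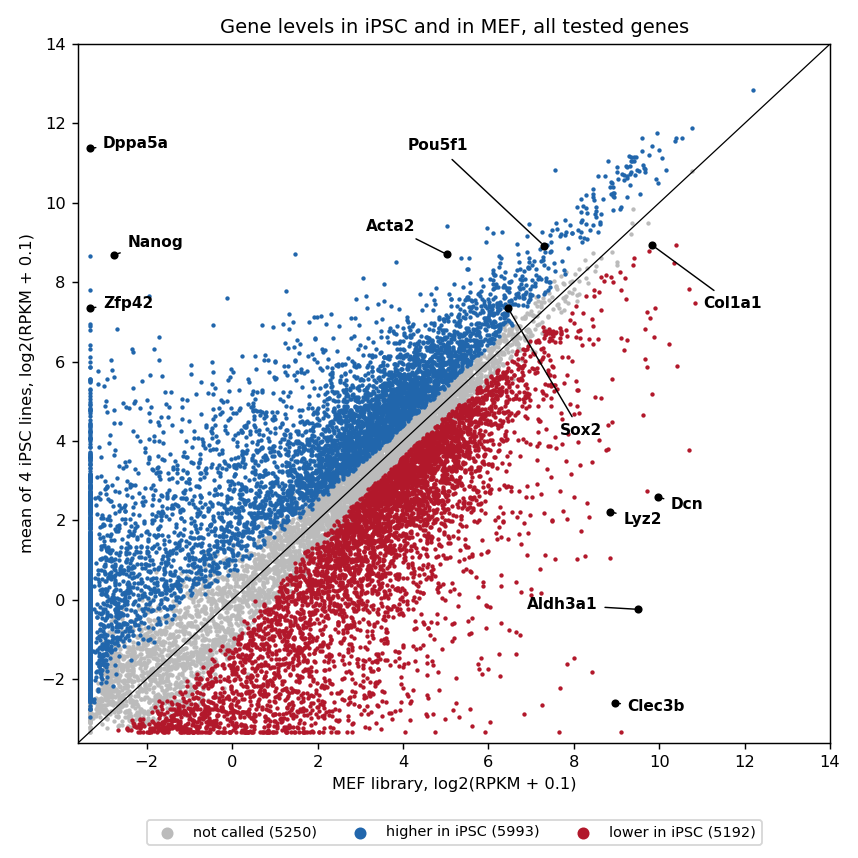
Level of each tested gene in MEF (x axis) and the mean of the 4 iPSC lines (y axis), both as log2(RPKM + 0.1), coloured by the edgeR call, with the line of equal level. Genes with no read in MEF stand in the column at the left edge. Dppa5a, Nanog and Zfp42 lie at the upper left, Dcn, Aldh3a1 and Clec3b at the lower right, and Pou5f1 and Sox2 near the diagonal.

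**Figure D3:**
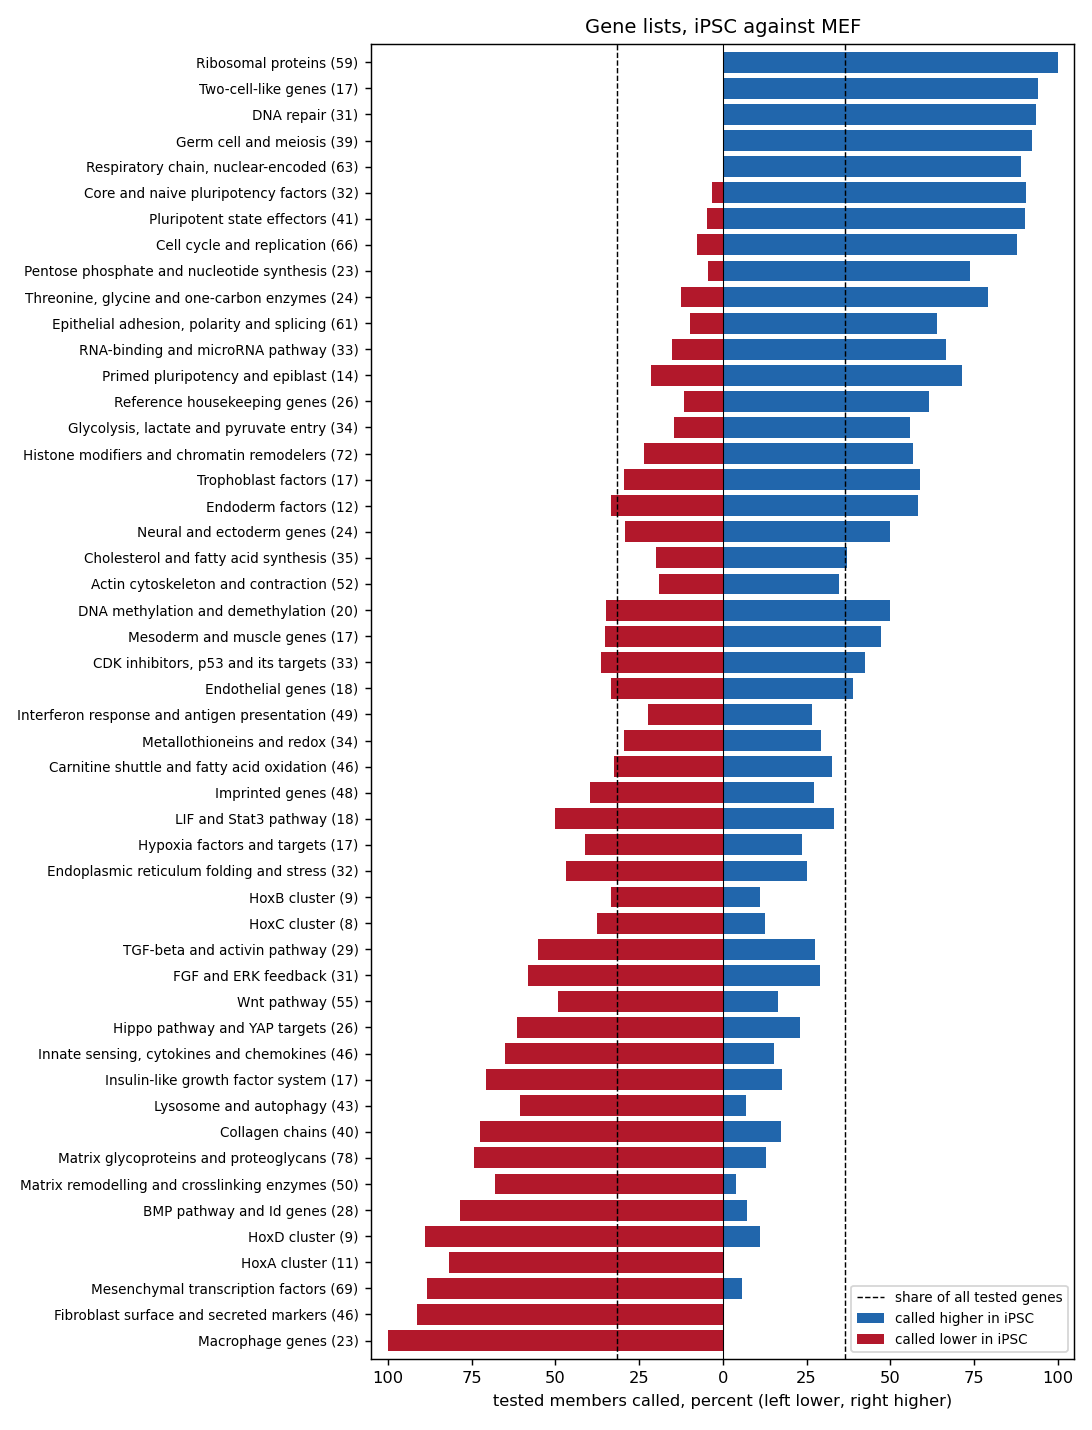
Share of the tested members of each gene list called higher (blue, to the right) or lower (red, to the left) in iPSC, in percent, with the number of tested members in brackets. Dashed lines mark the shares over all tested genes, 36.5% higher and 31.6% lower. All 59 ribosomal protein genes are higher and all 23 macrophage genes lower.

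Most genes of the pluripotency network were higher in the 4 lines than in MEF. Of 32 core and naive pluripotency factors tested, 29 were higher, 1 lower and 2 not called. Their median log2 fold change was 7.72, or 6.22 with the 13 genes that had no MEF read set at their lower bound, against 0.16 over all tested genes. Nanog (chr6:122707489-122714633) measured 388, 394, 473 and 401 RPKM in control iPSC 3, control iPSC 7, PC iPSC 5 and PC iPSC 13, the order used for every set of 4 values, and 0.0482 RPKM in MEF. Its 3 MEF reads give a ratio of 8584 (95% counting interval 2937 to 41622) (edgeR adjusted p = 3.7e-06). The lines lay close together with PC iPSC 5 highest, and all were far above MEF. Zfp42 measured 171, 169.7, 143 and 169 RPKM with no read in MEF, at least 2762-fold higher against a floor of 3 reads per library. Esrrb, an orphan nuclear receptor of the naive network, measured 131, 103, 111 and 95.2 RPKM, also with no read in MEF, and was at least 4429-fold higher. Control iPSC 3 had the highest Esrrb level of the lines, below the 162 RPKM of ESC, and Zfp42 was above its ESC level of 67.2 RPKM in every line. Mybl2, a cell cycle factor of the MYB family that is also on this list, had 195 ± 16.8 against 0.82 RPKM.

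Of the 4 usual reprogramming factors, Pou5f1 and Sox2 were higher in iPSC, Klf4 was not called and Myc was lower. Pou5f1 (chr17:35506032-35510777) measured 531, 487, 401 and 517 RPKM in the lines and 158 in MEF, a log2 fold change of 1.64 ± 0.22 (SE). Sox2 (chr3:34649995-34652461) measured 179.7, 153, 155 and 160.3 RPKM in the lines and 88.2 in MEF, a log2 fold change of 0.90 ± 0.17. For both genes the lowest line was above MEF. Klf4 measured 96.5, 95.4, 70.9 and 91.5 RPKM against 124 in MEF, a log2 fold change of -0.46 ± 0.18 that was not called (edgeR adjusted p = 0.06), although all 4 lines lay below MEF. The Klf4 value was -0.38 without PC iPSC 5 (edgeR adjusted p = 0.031) and -0.57 without PC iPSC 13 (edgeR adjusted p = 0.0063), and DESeq2 and RLE scaling also called it lower. Myc was lower, at 33.1, 37.2, 24.2 and 57.4 RPKM against 154, with PC iPSC 13 at more than 2 times PC iPSC 5. ESC had 21.4 RPKM of Klf4 and 2.82 of Myc, less than any of the 4 lines. Of the other members, the zinc finger factor Zfx was lower (5.54 ± 0.452 against 13.2 RPKM), and Thap11, also called Ronin, was not called (21.9 ± 1.39 against 22.5 RPKM, edgeR adjusted p = 0.9).

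The genes that carry out or mark the pluripotent state followed. Of 41 effectors tested, 37 were higher and 2 lower, with a median log2 fold change of 6.28 (5.58 at the bounds). Dppa5a (chr9:78367052-78368199), a small RNA-binding protein of pluripotent cells, measured 3053, 2740.5, 2185 and 2638 RPKM and had no read in MEF, at least 16023-fold higher. It had the highest mean level of all genes called at least 8-fold higher, and PC iPSC 5 was the lowest line. Slc2a3, the glucose transporter Glut3, measured 452, 408, 389.9 and 419.7 RPKM against 2.69 in MEF (log2 fold change 7.30 ± 0.28). Tdgf1, the Nodal co-receptor Cripto, measured 283, 224, 163 and 228 RPKM and was at least 4082-fold higher, with the same order of lines as Dppa5a at its ends. Igfbp2, a binding protein of insulin-like growth factors, differed less (489.7 ± 78.2 against 165 RPKM), as did the secreted phosphoprotein Spp1 (712 ± 145 against 392 RPKM), whose call was lost with limma on log2(RPKM + 1) (adjusted p = 0.059). The lower members were the ligand Bmp4 (3.61 ± 0.243 against 22.1 RPKM) and the ERK inhibitor Spry4 (0.519 ± 0.0511 against 11.1 RPKM). Lefty1, a Nodal antagonist, had 3.97 ± 2.17 against 3.3 RPKM and was not called (edgeR adjusted p = 0.72), while ESC had 155 RPKM. Its sign depended on single lines, with a log2 fold change of 0.64 without PC iPSC 5 (edgeR adjusted p = 0.013) and -0.48 without PC iPSC 13 (edgeR adjusted p = 0.036), from line values of 3.95, 3.74, 1.45 and 6.74 RPKM.

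Of 14 tested genes of the primed epiblast state, 10 were higher and 3 lower. Dnmt3b, a de novo DNA methyltransferase, had 21 ± 5.17 against 0.658 RPKM, whereas its relative Dnmt3a was lower (5.58 ± 0.305 against 20.02 RPKM), as were the zinc finger gene Sall2 and the Wnt antagonist Sfrp2. Cldn6, a claudin of embryonic epithelia, had 16.8 ± 0.764 RPKM against no read in MEF.

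**Figure D4:**
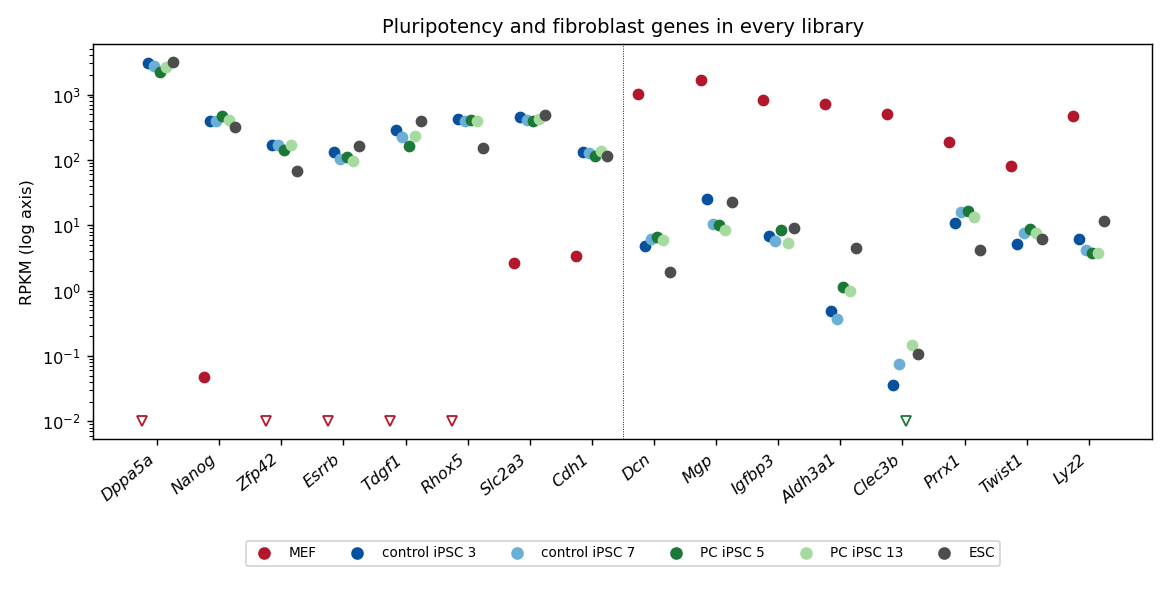
Level in RPKM (log axis) of 8 genes called higher and 8 called lower in iPSC, 1 point per library, open triangles standing for no read. For each gene the 4 iPSC lines lie on 1 side of MEF, and the ESC point lies on the side of the lines.

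Germline and early embryo genes were among those most often absent from MEF. Of 39 germ cell and meiosis genes tested, 36 were higher and 0 lower, with 17 of them at no read in MEF (median log2 fold change 7.68, 4.80 at the bounds). Rhox5, a reproductive homeobox gene on the X chromosome, measured 423, 389, 409.7 and 387 RPKM and no read in MEF, at least 3260-fold higher and above the 151 RPKM of ESC in each line. Dazl, a germ cell RNA-binding protein, measured 23.7, 38.9, 75.2 and 29.8 RPKM against 2 reads in MEF, a ratio of 1738 (95% counting interval 481 to 14355). PC iPSC 5 had about 2 times the Dazl level of the next line, and each line was above the 7.02 RPKM of ESC. Tdrd12, a Tudor domain protein of the piRNA pathway, had 45.6 ± 5.7 against 0.132 RPKM, and Tex19.1, a repressor of retrotransposons in germ cells, had 34.9 ± 11.3 RPKM against no read in MEF. Not called were Prdm1, Nanos3 and the helicase Ddx4 (4.89 ± 2.71 against 2.27 RPKM), and Ddx4 had a log2 fold change of 1.18 without control iPSC 3 (edgeR adjusted p = 0.0078), 0.97 without control iPSC 7 (edgeR adjusted p = 0.0056) and 1.39 without PC iPSC 13 (edgeR adjusted p = 0.0057).

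Of 17 tested genes of the 2-cell-like state, 16 were higher and 0 lower, and 15 had no MEF read. Their levels were low and varied between lines. Zscan4f, a zinc finger gene of that state, measured 7.17, 13.6, 9.78 and 13.5 RPKM (at least 188-fold higher), and Tcstv3 measured 6.76, 12.8, 9.41 and 17 RPKM (at least 94.1-fold higher). In ESC the levels were 1.57 and 0.734 RPKM. Members of these families are near-identical copies, so the split of reads between them is uncertain.

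In the other direction, the transcription factors that hold the mesenchymal state were lower nearly throughout. Of 69 tested, 61 were lower, 4 higher and 4 not called (median log2 fold change -2.27). Prrx1, a homeobox factor of limb and skin mesenchyme, measured 10.8, 15.8, 16.4 and 13.4 RPKM against 190.2 in MEF (log2 fold change -3.73 ± 0.20). Twist1, a helix-loop-helix factor of mesenchymal transition, measured 5.24, 7.55, 8.8 and 7.65 RPKM against 81.9 (log2 fold change -3.47 ± 0.19). Tbx15, a T-box factor, had 3.45 ± 1.13 against 75.7 RPKM. The transition factors were not reduced alike: Snai2 had 2.72 ± 0.74 against 23.6 RPKM, Zeb1 had 12.9 ± 3.55 against 23.1 RPKM with a log2 fold change of -0.84 ± 0.26, and Snai1 was not called (6.35 ± 0.928 against 9.9 RPKM, edgeR adjusted p = 0.06). Zeb1 was not called by limma on log2 CPM (adjusted p = 0.076), and Snai1 was called lower with RLE scaling (edgeR adjusted p = 0.035) and without PC iPSC 13 (edgeR adjusted p = 0.035). Higher members were Tead2, the TEAD factor of early embryos (60.01 ± 5.24 against 35.2 RPKM), the hedgehog effector Gli2 (8.6 ± 1.08 against 5.3 RPKM), the stress factor Atf3 (3.43 ± 0.734 against 1.3 RPKM) and, at a very low level, Pax3 (0.0805 ± 0.0189 RPKM against no read in MEF), which DESeq2 did not call (adjusted p = 0.06).

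Hox genes, which record position along the body, were lower mainly in the A and D clusters. In the HoxA cluster 9 of 11 tested genes were lower and none higher, with Hoxa10 at 1.45 ± 0.261 against 20.8 RPKM. In the HoxD cluster 8 of 9 were lower and 1 higher, and Hoxd13 had the highest MEF level of the cluster (2.9 ± 0.366 against 79 RPKM). In HoxB 3 of 9 were lower and 1 higher, and in HoxC 3 of 8 lower and 1 higher. The higher genes were Hoxb13 (1.49 ± 0.374 against 0.0272 RPKM), Hoxc13 (4.09 ± 0.295 against 0.338 RPKM) and Hoxd1 (0.328 ± 0.124 RPKM against no read in MEF). Lower in HoxB were Hoxb6, Hoxb3 and Hoxb5, and in HoxC Hoxc6, Hoxc8 and Hoxc5. The difference between clusters was not tested.

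Most matrix genes were lower in the lines. The 42 collagen chain genes in the table took 3.62% of MEF reads and 0.429% to 0.861% in the lines. Of 40 tested, 29 were lower, 7 higher and 4 not called (median log2 fold change -2.52). Col3a1 measured 37.2, 64, 76.4 and 56.9 RPKM against 1365 in MEF, and Col1a2, a chain of type I collagen, 136, 254, 284 and 233 against 1666. Col1a1, the partner chain of Col1a2, measured 258, 559, 635 and 516 RPKM against 904 and was not called (log2 fold change -0.88 ± 0.36, edgeR adjusted p = 0.067). Its value was -0.67 without control iPSC 3 (edgeR adjusted p = 0.043) and -1.21 without control iPSC 7 (edgeR adjusted p = 8.0e-05), so the lack of a call rests on single lines. Control iPSC 3 was the lowest line for all 3 chains. Col10a1, a chain of hypertrophic cartilage, measured 3.9, 1.44, 1.45 and 1.1 against 463 RPKM, with control iPSC 3 the highest line. Higher chains included Col18a1 of basement membranes (34.3 ± 3.98 against 17.9 RPKM) and Col9a2 (9.2 ± 2.36 against 0.208 RPKM).

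Of 78 matrix glycoproteins and proteoglycans tested, 58 were lower and 10 higher (median log2 fold change -2.46). Dcn (chr10:97479500-97518163), the proteoglycan decorin and a defining fibroblast marker, measured 4.74, 6.1, 6.64 and 6.05 RPKM against 1005 in MEF. The mean of the lines was 0.585% of the MEF level, a log2 fold change of -7.40 ± 0.16 (edgeR adjusted p = 2.1e-06). Bgn, the related biglycan, kept 9.67% (178 ± 33.8 against 1836 RPKM). Mgp, an inhibitor of calcification, measured 25.2, 10.5, 10.05 and 8.46 RPKM against 1663, and control iPSC 3 was more than 2 times any other line and near the 22.8 RPKM of ESC. Sparc, a secreted collagen-binding protein, kept 36.6%. Thbs1, Ctgf and Tnc, matrix proteins associated with cell adhesion, were not called: Thbs1 had 589 ± 133 against 648 RPKM (edgeR adjusted p = 0.7), Ctgf 208 ± 78.8 against 276 RPKM and Tnc 115 ± 24.5 against 159 RPKM. Without control iPSC 7, Ctgf and Tnc were called lower, with log2 fold changes of -0.84 and -0.61 (edgeR adjusted p = 0.0011 and 0.027). Higher members included the basement membrane proteins Nid2 (73.9 ± 8.68 against 32.6 RPKM) and Lama5 (42.2 ± 5.32 against 22.9 RPKM).

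Among matrix remodelling and crosslinking enzymes 34 of 50 tested were lower, 2 higher and 14 not called (median log2 fold change -1.33). Mmp2, a gelatinase, had 25 ± 2.18 against 785 RPKM, and its inhibitor Timp3 had 66.3 ± 10.1 against 813 RPKM. Pcolce, which enhances procollagen cleavage, had 57.9 ± 10.2 against 846 RPKM. The higher genes included the membrane metalloproteinase Mmp15 (3.78 ± 0.356 against 1.82 RPKM), and 5 genes of the list were higher without control iPSC 3.

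Of 46 fibroblast surface and secreted markers tested, 42 were lower and 0 higher (median log2 fold change -2.56). Clec3b, the plasminogen-binding tetranectin, measured 0.0359, 0.0748, 0 and 0.146 RPKM against 498 in MEF, a mean of 0.0129% of the MEF level. Ly6a, the stem and progenitor antigen Sca-1, measured 35.9, 96.8, 103 and 79.2 RPKM against 582. Thy1, a surface glycoprotein whose loss is used to sort reprogramming cells, measured 53.2, 102, 109 and 93.8 RPKM against 188, and the hyaluronan receptor Cd44 had 27.8 ± 7.95 against 51.5 RPKM. For Ly6a, Thy1 and Cd44 a sizeable part of the MEF level was thus read in the lines (13.5%, 47.4% and 53.9%). The calls of Thy1 and Cd44 were lost with limma on log2 CPM (adjusted p = 0.066 and 0.1), and that of Cd44 also without PC iPSC 13 (edgeR adjusted p = 0.07). Lgals1, a galectin, and the integrin chains Itgb1 and Itga5 were not called, with Lgals1 at 347 ± 97.7 against 512 RPKM (edgeR adjusted p = 0.17). The log2 fold change of Lgals1 was -0.84 without control iPSC 7 (edgeR adjusted p = 5.4e-04), and that of Itga5 0.87 without control iPSC 3 (edgeR adjusted p = 0.0014).

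The fraction of the MEF level kept therefore ran over several orders of magnitude. Among 249 tested genes of the mesenchymal factor, collagen, matrix, surface and actin lists with at least 10 RPKM in MEF, 14 had a mean iPSC level under 1% of MEF and 67 from 1% to 10%. Another 87 lay from 10% to 50%, and 81 at 50% or more. The median over these genes was lowest for control iPSC 3 at 17%, followed by PC iPSC 13 at 23.3%, control iPSC 7 at 25.5% and PC iPSC 5 at 28.5%, against 14.4% in ESC. Control iPSC 3 was the lowest line for 72.3% of them, and for 32.5% of all tested genes at that MEF level. This order of lines was seen after the values were known and was not tested. The part of feeder RNA in these values was not tested. Dcn stood at 0.585%, whereas Col1a1 stood at 54.4%.

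**Figure D5:**
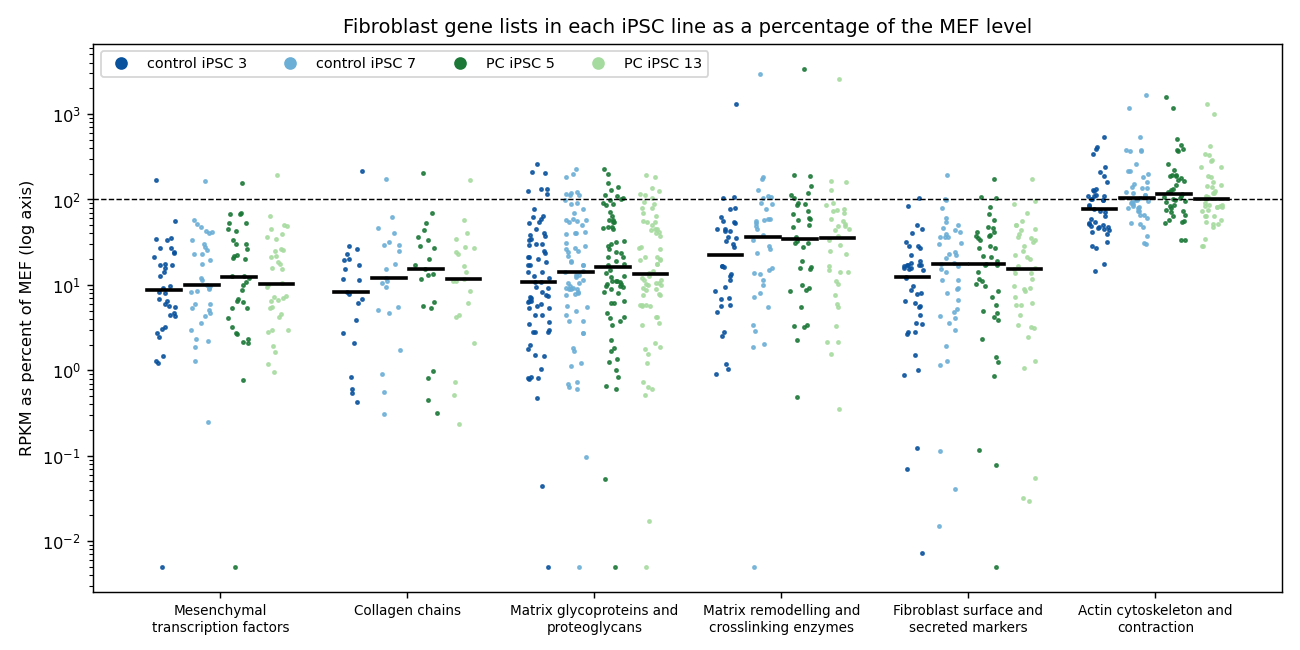
RPKM in each iPSC line as a percentage of the MEF level (log axis) for genes of 6 fibroblast lists with at least 10 RPKM in MEF, 1 point per gene, black bars marking medians and the dashed line 100%. Values under 0.005% are drawn at 0.005%. Actin and contraction genes lie around the MEF level and the other lists mostly below it.

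Contractile and actin genes did not follow the matrix genes. Of 52 tested, 18 were higher, 10 lower and 24 not called (median log2 fold change 0.26). Without control iPSC 7 there were 18 higher and 19 lower. Acta2, smooth muscle actin and a marker of activated fibroblasts, measured 174, 539.9, 517 and 429 RPKM in the lines and 32.6 in MEF (log2 fold change 3.68 ± 0.67). Tagln, the actin-binding transgelin, measured 162, 491, 489 and 411 RPKM against 41.2 (log2 fold change 3.24 ± 0.64). For both, control iPSC 3 was the lowest line and lay beside ESC, at 189.9 and 208 RPKM. The skeletal actin Acta1 gave 7.19, 61, 62 and 48.8 RPKM against 0.500, and the intermediate filament protein desmin, Des, had 31.6 ± 12.2 against 0.769 RPKM. Vim, vimentin, was lower (228, 396, 440.2 and 369 against 1298 RPKM), as was the nuclear lamin Lmna (43.3 ± 13.8 against 160.5 RPKM), and the cytoplasmic actins Actb (717 ± 68.5 against 656 RPKM) and Actg1 (924 ± 262 against 664 RPKM) were not called. The 5 smooth muscle and pericyte markers summed to 198 RPKM in control iPSC 3, 513 to 635 in the other lines, 49.5 in MEF and 225 in ESC. Acta2 made up most of each sum. The markers did not move together: Acta2, Cnn1 and Myh11 were higher in iPSC. Rgs5 (0.0399 to 0.204 against 1.28 RPKM) and Cspg4 (0.661 to 1.73 against 14.1 RPKM) were lower. The part of smooth muscle cells or pericytes, or of feeders in another state than the MEF sample, was not tested.

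The YAP and TEAD pathway, which reads cell stretch and contact, was divided. Of 26 genes tested, 16 were lower and 6 higher. The coactivators Yap1 (44.5 ± 1.73 against 73 RPKM) and Wwtr1, or TAZ (18.5 ± 0.322 against 96.4 RPKM), were lower. The target Ankrd1, a muscle ankyrin repeat protein, was higher (12.7, 28.1, 30.3 and 18.7 against 0.162 RPKM, log2 fold change 7.11 ± 0.80), while the targets Ctgf and Cyr61 (114 ± 32.3 against 136 RPKM) were not called.

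Epithelial genes were mostly higher. Of 61 genes of adhesion, polarity and epithelial splicing tested, 39 were higher, 6 lower and 16 not called (median log2 fold change 2.77, 2.51 at the bounds). Cdh1, E-cadherin, measured 132, 126, 116 and 136 RPKM against 3.36 in MEF (log2 fold change 5.27 ± 0.24), and the 4 lines were close to each other. Cdh2, N-cadherin, was lower (5.63 ± 0.695 against 19.6 RPKM, log2 fold change -1.78 ± 0.17). Spint2, a membrane protease inhibitor, had 79.6 ± 13.2 against 14.5 RPKM, and the polarity protein Llgl2 had 45.9 ± 11 against 2.71 RPKM. Lower members included the desmosomal proteins Pkp1 (0.0366 ± 0.0248 against 25.8 RPKM), Perp (16.1 ± 0.974 against 85.5 RPKM) and Jup (18.2 ± 1.54 against 47.3 RPKM). The catenin Ctnnb1 was not called (203 ± 7.86 against 268 RPKM, edgeR adjusted p = 0.055), and was called lower by DESeq2 (adjusted p = 0.0046) and without PC iPSC 5 or PC iPSC 13 (edgeR adjusted p = 0.023 and 0.034).

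Each signalling pathway held genes of both directions. In the TGF-beta and activin list 16 of 29 were lower and 8 higher. The receptor Tgfbr2 was lower (6.52 ± 1.57 against 106 RPKM), as was the follistatin-like glycoprotein Fstl1 (92.7 ± 17.3 against 608 RPKM), whereas the ligands Nodal (39.3 ± 7.67 RPKM against no read in MEF) and Gdf3 (32.7 ± 3.35 against 0.152 RPKM) were higher with their co-receptor Tdgf1. In the BMP list 22 of 28 were lower and 2 higher, the lower including the target genes Id1 (12.3 ± 1.34 against 86.4 RPKM) and Id3 (42.4 ± 4.65 against 169 RPKM), and the higher being the ligands Bmp7 and Bmp8b. Gdf10, a BMP-related ligand, had 60.4 RPKM in MEF and no read in any line, at least 1434-fold lower. In the FGF list 18 of 31 were lower and 9 higher, with Fgf4, the autocrine ligand of pluripotent cells, at 93.7 ± 8.55 against 2.78 RPKM and the receptor Fgfr1 at 26.5 ± 2.12 against 85.6 RPKM.

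The LIF and Stat3 list had 9 lower, 6 higher and 3 not called of 18. In the signal chain the shared receptor Il6st was lower (16.3 ± 2.47 against 113 RPKM). So were the kinase Jak1 (20.9 ± 1.79 against 73.5 RPKM) and Stat3 (21.6 ± 4.39 against 60.9 RPKM). The chain's target Socs3 was higher (22.6 ± 4.22 against 11.6 RPKM), as was the kinase gene Pim1 (79.7 ± 7.92 against 7.67 RPKM). Of 55 Wnt genes 27 were lower and 9 higher, with the antagonist Dkk2 (3.89 ± 0.277 against 179 RPKM) and the ligand Wnt5a (4.8 ± 1.7 against 45.2 RPKM) lower and the effector Tcf7 (16 ± 3.89 against 3.77 RPKM) higher. Of 17 genes of the insulin-like growth factor system 12 were lower and 3 higher. Igfbp3, a secreted binding protein, measured 6.83, 5.82, 8.42 and 5.37 RPKM against 838 in MEF, and the growth factor Igf2 had 46.8 ± 11.7 against 473 RPKM. The higher genes were Igfbp2, the embryonic RNA-binding protein Igf2bp1 (45.8 ± 5.73 against 3.56 RPKM) and its relative Igf2bp3 (19.7 ± 3.27 against 12.5 RPKM).

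Cell cycle genes were higher as a group. Of 66 cell cycle and replication genes tested, 58 were higher, 5 lower and 3 not called (median log2 fold change 3.37, 3.27 at the bounds). Top2a, the topoisomerase of dividing cells, measured 188, 182, 198 and 189 RPKM against 7.35 in MEF (log2 fold change 4.71 ± 0.21). Pcna, the sliding clamp of replication, had 219 ± 39.8 against 56.2 RPKM. The lower members were the D cyclins Ccnd1 (16.7, 16.8, 18.8 and 12.1 against 388 RPKM) and Ccnd2 (32.9 ± 4.01 against 156 RPKM), the retinoblastoma family genes Rb1 (7.24 ± 0.804 against 16.1 RPKM) and Rbl2 (3.54 ± 0.185 against 15.4 RPKM), and the phosphatase gene Cdc25b. Of the inhibitors and p53 genes 14 of 33 were higher and 12 lower (13 and 14 without PC iPSC 5), with Trp53 at 138 ± 22.5 against 38.8 RPKM, the Ink4a/Arf locus Cdkn2a at 38 ± 7.57 against 92.2 RPKM, and the p21 gene Cdkn1a not called (195 ± 30.3 against 216 RPKM, edgeR adjusted p = 0.55). Of 31 DNA repair genes 29 were higher and none lower, led by the mismatch repair gene Msh6 (183 ± 7.86 against 11.7 RPKM).

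Genes that write chromatin were mixed with a lean to the higher side. Of 20 DNA methylation genes 10 were higher and 7 lower. Uhrf1, which guides maintenance methylation, had 113 ± 15.9 against 2.42 RPKM, and Zfp57, which protects imprints, had 139.9 ± 6.78 against 3.89 RPKM. Of 72 histone modifiers and remodelers 41 were higher and 17 lower, with the variant histone H2afz (616 ± 82.8 against 79.6 RPKM) among the higher and the remodeler ATPase Smarca2 (2.41 ± 0.538 against 45.6 RPKM) among the lower. Of 33 RNA-binding and microRNA pathway genes 22 were higher. Lin28a, which blocks let-7 maturation, measured 40.01, 30.6, 13.5 and 35.6 RPKM with no read in MEF (at least 972-fold higher), and PC iPSC 5 was the lowest line. The muscleblind splicing factor Mbnl1 was lower (3.89 ± 0.169 against 80.4 RPKM).

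Genes of protein synthesis and energy supply were higher. All 59 ribosomal protein genes were higher, and 58 were with RLE scaling. They took 6.34% to 7.34% of reads in the lines and 2.51% in MEF. Their fitted log2 fold changes ran from 0.56 to 13.4 with a median of 1.48. The list includes 1 gene with no MEF read, whose fitted fold depends on the prior count. Many of these genes have near-identical processed copies, so single genes are uncertain. Among reference housekeeping genes 16 of 26 were higher and 3 lower (Rab7, Reep5 and Gusb), or 12 and 5 without control iPSC 7, so the usual reference genes were not level between the cell types. Of 63 nuclear genes of the respiratory chain 56 were higher and none lower (median log2 fold change 1.26), with the ATP synthase subunit Atp5b at 1169 ± 39.1 against 311 RPKM.

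Glycolysis genes were higher in 19 and lower in 5 of 34, the lower being Mpc2, Aldoc, Pdk2, Pfkfb4 and Pdk4. Gapdh, a glycolytic enzyme often used as a reference, measured 1726, 1646, 1607 and 1614 RPKM against 379 in MEF. Hk2, an inducible hexokinase, had 37.9 ± 6.22 against 4.94 RPKM, and Eno1, an enolase, had 704 ± 64.6 against 123 RPKM. Of 24 threonine, glycine and one-carbon enzymes 19 were higher and 3 lower (median log2 fold change 2.88), the lower including Aldh1l2 and Mthfd2l. Tdh, the threonine dehydrogenase on which mouse pluripotent cells are known to depend, measured 181, 137, 112 and 128 RPKM against 3.67. Gldc, of the glycine cleavage system, had 85.5 ± 8.15 RPKM against no read in MEF, at least 3026-fold higher. Asns, asparagine synthetase, had 688 ± 74.5 against 32.7 RPKM. Of 23 pentose phosphate and nucleotide synthesis genes 17 were higher.

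Fatty acid oxidation genes, the pathway that palmitoylcarnitine enters, showed no one-sided difference: 15 of 46 were higher and 15 lower (median log2 fold change -0.03). Cpt1a, which makes acylcarnitines at the outer membrane, had 38.2 ± 2.09 against 57.4 RPKM (log2 fold change -0.56 ± 0.14). Fabp3, a fatty acid binding protein, was higher (276 ± 69.4 against 8.28 RPKM). Cholesterol and fatty acid synthesis genes gave 13 higher and 7 lower of 35, hypoxia genes 4 and 7 of 17, and redox genes 10 and 10 of 34. Folding and stress genes of the endoplasmic reticulum gave 8 higher and 15 lower of 32, with Serpinh1, the chaperone of collagen, at 224 ± 47.5 against 548 RPKM.

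Immune genes set the MEF library apart. All 23 macrophage genes tested were lower in iPSC (median log2 fold change -6.00). Lyz2, the myeloid lysozyme, measured 6.27, 4.25, 3.82 and 3.8 RPKM against 463 in MEF, and the complement genes C1qa (0.485 ± 0.154 against 89.8 RPKM), C1qb and C1qc were lower too. Of 46 genes of innate sensing, cytokines and chemokines 30 were lower and 7 higher. Complement genes that fibroblasts themselves express were among the lower, such as C1ra (0.986 ± 0.201 against 128 RPKM) and the inhibitor Serping1 (10.4 ± 2.64 against 283 RPKM). Of 43 lysosome and autophagy genes 26 were lower and 3 higher (Glb1, Ulk1 and Mitf). The summed macrophage markers of the MEF library, given above, move with these lists, and their part was not tested.

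Interferon response and antigen presentation genes were not one-sided, with 13 higher, 11 lower and 25 not called of 49. The same list had 17 higher and 11 lower without control iPSC 3, 14 and 23 without control iPSC 7, and 11 and 7 without PC iPSC 5. With all lines kept it had 10 and 5 by limma on log2 CPM and 10 and 6 by limma on log2(RPKM + 1), so its balance depends on single lines and on the test. Bst2, the antiviral tetherin, had 619 ± 142 against 152 RPKM, and Ifngr1, the interferon-gamma receptor, had 4.8 ± 0.869 against 32.8 RPKM. Irf7, the interferon regulatory factor, measured 32.7, 108, 111 and 99.4 RPKM against 22.2 in MEF. Irf7 was nearest the MEF level in control iPSC 3, and about 3 times the control iPSC 3 level in the other 3 lines. Its call was lost with limma on log2 CPM (adjusted p = 0.076) and without PC iPSC 5 (edgeR adjusted p = 0.054). B2m, the light chain of class I molecules, was not called (713 ± 204 against 851 RPKM, edgeR adjusted p = 0.55), with a log2 fold change of -0.54 without control iPSC 7 (edgeR adjusted p = 0.041).

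Lists of other lineages held genes of both directions. Of 12 endoderm factors 7 were higher and 4 lower, of 17 trophoblast factors 10 and 5, of 24 neural genes 12 and 7, of 17 mesoderm and muscle genes 8 and 6, and of 18 endothelial genes 7 and 6. Krt18, a keratin of simple epithelia, measured 14.6, 15.2, 42.7 and 11.8 RPKM against 0.204 in MEF, with PC iPSC 5 more than 2 times any other line. Pecam1, an adhesion molecule that naive pluripotent cells share with endothelium, measured 68.3, 71, 108 and 70.2 RPKM against 0.0965. Pdgfra, a receptor of mesenchyme and primitive endoderm, was lower (0.777 ± 0.0833 against 66 RPKM).

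Of 48 imprinted genes, which are expressed from 1 parental copy, 13 were higher and 19 lower. The long noncoding RNA H19 measured 48.5, 80.1, 127 and 92.2 RPKM against 1201 in MEF, with control iPSC 3 lowest, and its neighbour Igf2 was lower as well. Gnas, a G protein subunit locus, had 87.1 ± 13 against 349 RPKM, and the adaptor Grb10 was not called (65.2 ± 20.3 against 111 RPKM, edgeR adjusted p = 0.092). Grb10 was called lower when any of the 4 lines was left out, with log2 fold changes from -1.1 to -0.56.

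The genes of highest level among those at least 8-fold different were taken without reference to any list. On the iPSC side they were Dppa5a, the heat shock proteins Hsp90aa1 (1802 ± 205 against 189 RPKM) and Hspb1 (605 ± 42.8 against 68.4 RPKM), Asns, the initiation factor subunit Eif2s2 (658 ± 38.7 against 62.7 RPKM), the ubiquitin-conjugating enzyme Ube2s (512 ± 22.7 against 62 RPKM), Slc2a3, Acta2, Nanog, Rhox5, the translation repressor Eif4ebp1 (389.6 ± 23.9 against 46.7 RPKM) and Tagln. On the MEF side they were Bgn, Mgp, Col3a1, H19, Dcn, the actin-severing gelsolin Gsn (98.2 ± 24.6 against 941 RPKM), Emp1 (36.3 ± 6.13 against 904 RPKM), Pcolce, Igfbp3, Timp3, Mmp2 and Aldh3a1. Aldh3a1, an aldehyde dehydrogenase known from cornea, measured 0.482, 0.371, 1.13 and 1 RPKM against 728 in MEF (log2 fold change -10.05 ± 0.16). The number of genes without any MEF read and with at least 1 RPKM in each line was 330, and 61 of them had at least 10 RPKM in each. In the reverse direction 54 genes had no read in any line and at least 1 RPKM in MEF, and 5 had at least 10. Absence from 4 libraries is a stricter condition than absence from 1, so these numbers are not comparable between directions.

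The highest of the genes on only in the lines were, after Dppa5a, Rhox5, Tdgf1 and Zfp42, the X-linked tumour antigen Trap1a (120.0, 127, 104 and 138 RPKM, at least 1341-fold), the autophagy receptor Calcoco2 (96.8, 118, 117 and 146 RPKM, at least 2262-fold), Esrrb and Gldc. Calcoco2 was above its ESC level of 38.6 RPKM in each line. The highest of the genes on only in MEF included the secreted Ly6-family protein Slurp1 (546 RPKM, at least 2604-fold lower), Myoc, the secreted glycoprotein myocilin (201 RPKM, at least 3824-fold), Gdf10, Serpina9 (26.8 RPKM), the matrix protein vitrin, Vit (16.3 RPKM), Cnfn and Gsta1. Slurp1 is known from keratinocytes. The 5 keratinocyte markers summed to 31.4 RPKM in MEF and 0.41 to 3.45 in the lines. Most of the MEF sum was Krt14 (29.9 RPKM). Krt14, Trp63 and Dsg3 were lower in iPSC, whereas Krt5 (0.132 to 0.202 against 0.131 RPKM) and Krt15 were not called. The part of keratinocytes in these values was not tested.

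Promoter letters were compared for 12888 tested genes with an entry in the RefSeq table, which has 16238 start sites for them. Dppa5a and Dcn had no entry. The joint SOX and POU element was found in 3 promoters, and both overlapping windows of Nanog were among them. The octamer ATGCAAAT, which the joint element can overlap, was in 1.75% of promoters of genes at least 8-fold higher, 2.26% of those at least 8-fold lower and 1.42% of all. TGANTCA, the AP-1 motif, was in 5.7%, 9.47% and 5.74%, in the same order. CACCTG, an E-box, was in 28.2%, 17.6% and 19.2%, and TATAAA in 10.9%, 12.9% and 8.07%. For GGAATG, the TEAD motif, the shares were 14.7%, 15.9% and 12.8%, and for CATTGT, the SOX part of the joint element, 9.37%, 7.37% and 7.67%. GGGCGG, the GC box, was in 46.1%, 40.8% and 58.2%, and TGACGTCA, the cyclic AMP response element, in 2.36%, 1.2% and 2.8%. Both strands were searched, and a match is a description and not a bound site.

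The strongly different genes shared a base composition. The median ratio of observed to expected CpG was 0.476 in promoters of genes at least 8-fold higher and 0.417 in those at least 8-fold lower, against 0.706 in all. A ratio of 0.6 or more, usual for CpG islands, was found in 39.2%, 35% and 61.5% of promoters. Promoters of strongly different genes were thus poorer in CpG in both directions, a description without a test.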

How the data were processed

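RNA of 6 mouse cell samples was sequenced from mRNA libraries, and 1 library per line or cell type was used. The deposited table of the series gives, per the file headers, the uniquely assigned read count of each gene with its library total, an RPKM value that the authors scaled by gene length and that total, and the share of the gene covered by reads (coverage, in percent). The submitters' processing notes list CASAVA 1.8.2 and mm10 without saying what each did. Aligner, counter, annotation and strand handling are not given in the sources used, so overlapping antisense genes and near-identical copies are uncertain. For 92 of 19330 genes the deposited RPKM did not follow from the length column within a relative tolerance of 0.001, and 0 of them are named in the text. Of low values, from 1 read up to 20, an even number was found in 62.4% to 67.5% per library, so a low count may stand for fewer fragments than it has reads.

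The test was the quasi-likelihood F test of edgeR 4.0.16 (R 4.3.3) after TMM scaling. Its default filter on low counts left 16435 genes. The model had 4 group means (control iPSC, PC iPSC, MEF and ESC), 2 residual degrees of freedom, and the contrast of the mean of both iPSC groups with MEF. The Benjamini-Hochberg adjustment took in every tested gene. SE of a log2 fold change was taken from the fold and its F statistic. Where one side had no read, the fold is a lower bound against a floor of 3 reads per library, 0.107 to 0.113 CPM (counts scaled to library size), and where it had 1 to 3 reads, the ratio has an exact Poisson interval, both for counting error only. That interval takes each read as independent, so it is too narrow where a fragment was counted as more than 1 read. The script was tested on simulated data.

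The 50 lists name 1664 genes, and the table holds 1649 of these, some on more than 1 list. The members, lists and naming rule were chosen with earlier results of these data known. The rule named the 12 genes of highest level in each direction among those called at least 8-fold different, the 8 highest called genes with no read on the other side, up to 4 called members of each list in each direction and 3 not called, and a fixed set of markers, passing over predicted names. A few genes it names are not reported here. Cdc25b and Pdk4 fall outside it and were named after their values were seen. Gene positions are from RefSeq on GRCm38, by gene ID. The alternatives were DESeq2 1.42.0, limma 3.58.1 on log2 CPM and on log2 RPKM with pseudocounts of 1 and 0.1, 3 other scalings, 2 other filters, other groupings, a test against a 2-fold change, halved counts, each iPSC line left out, and chromosome 11 left out. The labels give no batch or date.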

Additional observations from a re-analysis of the deposited data

Results flagged for a closer look

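Among the 4 iPSC lines, 17 of 194 genes named in the text had 1 line standing apart from the other 3, where the gap to the next line, as a share of the whole range, passed the 95% critical value of Dixon's test for 4 samples. Chance flags about 1 in 20 groups, and these genes are not independent.

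Control iPSC 3 was the separate line for 7 genes. It was low for the desmin gene Des (gap ratio 0.94, 13.3 RPKM), Emp1 (0.902, 27.1 RPKM), Fstl1 (0.881, 66.9 RPKM), Bst2 (0.869, 408 RPKM) and Irf7 (0.855, 32.7 RPKM). It was high for Mgp (0.877, 25.2 RPKM) and Col10a1 (0.876, 3.9 RPKM).

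PC iPSC 5 was the separate line for 9 genes. It was low for Zfp42 (gap ratio 0.946, 143 RPKM), Grb10 (0.892, 34.9 RPKM) and Ube2s (0.887, 478 RPKM). It was high for Pecam1 (0.934, 108 RPKM), Llgl2 (0.906, 62.4 RPKM), Krt18 (0.888, 42.7 RPKM), Atf3 (0.859, 4.52 RPKM), Nanog (0.84, 473 RPKM) and Igfbp2 (0.829, 606 RPKM). PC iPSC 13 was the separate line for Spp1, where it was low (0.868, 497 RPKM). All of these genes except Grb10 were called, and for each called gene the separate line remained on the same side of MEF as the other 3.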

How the results depend on the processing

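The number of genes called, 11185 with 5993 higher and 5192 lower, changed by more than 1.5 times under 1 alternative, the test against a 2-fold change, which asks for a larger difference and called 6596 genes, 3591 higher and 3005 lower. Under the other alternatives 9905 (mean RPKM of at least 1) to 11469 (4 lines as 1 group) genes were called, and DESeq2 called 10363. Leaving out 1 iPSC line gave 10894 to 11260 calls, 5793 to 6037 higher and 5101 to 5314 lower. Without chromosome 11, an alternative chosen after seeing the data, 10446 genes were called. The median log2 fold change of tested genes was 0.42 on chromosome 11. It was 0.43 on chromosome 17 and 0.41 on chromosome 4, which were not left out. RLE scaling, which moved the split most among scalings, called 5679 higher and 5494 lower. Of 194 named genes, 148 kept their call and direction under every alternative that gave them a value. Lefty1, not called, changed sign between leaving out PC iPSC 5 (log2 fold change 0.64) and PC iPSC 13 (-0.48).

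Some list medians changed sign. Without chromosome 11 they were -0.12 for CDK inhibitors and p53 genes (0.20 with it), 0.04 for fatty acid oxidation (-0.03) and -0.70 for endothelial genes (0.29). With 1 line left out, the interferon list (-0.02 with all) had medians from -0.18 (control iPSC 7) to 0.19 (control iPSC 3), with 0.02 without PC iPSC 13, and fatty acid oxidation from -0.07 (PC iPSC 5) to 0.01 (control iPSC 7). The interferon median was 0.00 with the 4 lines as 1 group. With only genes of mean RPKM of at least 1, medians were -0.95 for endoderm (2.86 without that filter), -0.41 for neural (1.23) and -2.26 for mesoderm and muscle genes (1.06), fewer genes being tested.

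MEF is 1 library, so no paired analysis was possible. No alternative can leave the MEF library out, and the call of each gene rests on it. Depth limits genes of few reads, where the fitted fold depends on the prior count.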
